A study of Mus musculus with 2 samples.

Results

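Amino acids enter a cell through carrier proteins of the solute carrier families, and 9 of their genes were followed here in sorted fetal mouse lung cells. They were Slc7a8, Slc7a5, Slc7a6, Slc3a2, Slc1a5, Slc38a1, Slc38a2, Slc38a4 and Slc38a5, taken by symbol from the 32285 genes of the matrix, where each had 1 row. The list was put together with the values of these cells known, Slc7a8 in group 2 innate lymphoid cells (ILC2s) among them, so levels in ILC2-like cells are a description without a test. These lymphocytes live in tissues such as the lung, make the type 2 cytokines IL-5 and IL-13, and respond to IL-33 through ST2. The wild type fetuses came from mothers that were 9 weeks old, had received no earlier treatment, and were given PBS (buffered saline) or DEX (dexamethasone, a drug that activates the glucocorticoid receptor) in the drinking water, the latter at 1.3 µg/ml, between gestation days 12 and 18, when fetal lungs were taken. Lungs were pooled within a litter, of 8 and 9 fetuses for the litters DEX-1 and DEX-2 and of 5 and 8 for PBS-1 and PBS-2, and the litter is the replicate, 2 per treatment. Live CD45+ Lin- ST2+ cells were sorted, marked with 1 hashtag antibody per litter and run together in a 10x Genomics 5′ single-cell library, in which each captured RNA molecule is counted once by its unique molecular identifier (UMI).

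The hashtags gave 7268 singlets, 1737 to 1890 per litter, with a median of 8025.5 UMIs per cell and no repeated barcode among the 10648 deposited. Cell classes were rebuilt from marker genes with the 9 transporters kept out of the clustering. ILC2-like cells made up 28.2% of singlets (2049 cells) and mast cell-like cells 31.8% (2310 cells), so the sort held more than ILC2s. Basophil-like (493), epithelial-like (446), endothelial-like (316), B cell-like (199) and mesenchymal-like cells (198) followed, and the other clusters were left unnamed. The summed level of 8 ILC2 markers was 3957 to 4339 CPM (UMI counts scaled to the same total of UMIs in each sum) in ILC2-like cells and 253 to 296 in mast cell-like cells, while the sum of 12 mast cell markers was 395 to 535 and 62809 to 69133 CPM. All levels below are CPM over the cells of a class in a litter, named in the order DEX-1, DEX-2, PBS-1 and PBS-2. The 4 litters shared 1 loading and so the same free RNA.

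The 9 genes fall into 3 kinds of carrier. Slc3a2 encodes the heavy chain CD98hc, which carries light chains to the plasma membrane; Slc7a5 (LAT1), Slc7a8 (LAT2) and Slc7a6 (y+LAT2) encode light chains that pair with it and exchange large neutral or, for Slc7a6, also basic amino acids. Slc38a1, Slc38a2, Slc38a4 and Slc38a5 encode sodium-coupled carriers of small neutral amino acids such as alanine and glutamine. Slc1a5 encodes ASCT2, a sodium-dependent exchanger of glutamine, serine and alanine. Lymphocytes are known to raise several of these carriers when they are activated, and leucine that enters through LAT1 is sensed by mTORC1.

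In GRCm38 with GENCODE M21, the annotation held all 9 genes under the same Ensembl identifier. Slc38a1 (chr15:96571418-96642913), Slc38a2 (chr15:96687392-96699730) and Slc38a4 (chr15:96994820-97055956), all on the minus strand, were neighbours on chromosome 15. Slc7a5 (chr8:121881150-121907694, minus strand) and Slc7a6 (chr8:106168857-106198706, plus strand) both lay on chromosome 8. Slc7a8 lay at chr14:54722209-54781946 and Slc3a2 at chr19:8706882-8723369 (both minus strand), Slc1a5 at chr7:16781340-16798274 and Slc38a5 at chrX:8271133-8280179 (both plus strand). RefSeq promoters of build GRCm38.p6 were found for 6 of the 9 genes and not for Slc7a5, Slc38a1 and Slc1a5. The promoters of 4 light chain and Slc38 genes are shown because these genes were high together in 1 ILC2 sub-cluster, described further on. They are Slc7a8 (chr14:54781947-54782136, minus strand), Slc38a4 (chr15:97055957-97056206, minus strand), Slc38a5 (chrX:8271261-8271380, plus strand, inside the span of the gene) and Slc7a6 (chr8:106168604-106168853, plus strand), cut to the bases that lie in no annotated exon and written 5′ to 3′ with each CG pair in capitals.
Slc7a8: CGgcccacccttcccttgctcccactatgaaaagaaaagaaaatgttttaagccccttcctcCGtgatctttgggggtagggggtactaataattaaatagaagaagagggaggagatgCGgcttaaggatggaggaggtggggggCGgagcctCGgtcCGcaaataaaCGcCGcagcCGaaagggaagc
Slc38a4: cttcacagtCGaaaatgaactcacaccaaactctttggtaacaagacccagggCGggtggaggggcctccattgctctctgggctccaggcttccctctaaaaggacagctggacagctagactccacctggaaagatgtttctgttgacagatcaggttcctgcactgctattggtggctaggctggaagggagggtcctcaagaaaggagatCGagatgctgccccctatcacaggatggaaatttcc
Slc38a5: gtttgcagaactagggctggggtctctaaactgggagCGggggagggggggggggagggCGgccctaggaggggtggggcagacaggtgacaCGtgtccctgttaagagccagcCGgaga
Slc7a6: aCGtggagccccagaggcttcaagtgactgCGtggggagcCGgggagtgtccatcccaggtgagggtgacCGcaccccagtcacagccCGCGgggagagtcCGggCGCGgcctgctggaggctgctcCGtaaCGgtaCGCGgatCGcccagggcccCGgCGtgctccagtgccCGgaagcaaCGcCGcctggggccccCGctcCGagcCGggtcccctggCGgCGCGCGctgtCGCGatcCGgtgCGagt
The Slc7a6 window held 30 CG pairs in 250 bases with 74.0% G or C, while that of Slc38a4 held 3 in 250 bases with 52.8%. Slc7a8 had 9 in 190 bases (53.2%) and Slc38a5 had 4 in 120 bases (66.7%), against a median over all promoters of 52.4% G or C and 2.4 CG pairs per 100 bases. None of the 6 windows held the GATA motif AGATAA, the glucocorticoid receptor motif (AGAACA, any 3 bases, then TGTTC) or the ATF4 and CEBP motif TGATGNAA on either strand, which 9.97%, 0.0307% and 3.4% of 32536 promoters held. Those shares are over uncut promoters of 250 bases, while the 6 windows were 63 to 250 bases long. Motifs this rare are mostly absent from 6 windows, so nothing is read from their absence.

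Slc7a8 was highest in mast cell-like cells, at 420, 475, 557 and 563 CPM. Every litter of that class lay above every litter of the other named classes. ILC2-like cells had 52.4, 57.8, 134 and 122 CPM, with both PBS litters above both DEX litters. They overlapped with mesenchymal-like cells (60.4 to 170 CPM) and basophil-like cells (52.3 to 76.5 CPM), while endothelial-like (8.91 to 42.9 CPM), epithelial-like (12.6 to 31.1 CPM) and B cell-like cells (0 to 19.6 CPM) were lower. A Slc7a8 UMI was seen in 39.6% of ILC2-like cells at a median depth of 7246 UMIs and in 2.51% of B cell-like cells at 3528 UMIs. With each cell thinned to 2000 UMIs, which left out 18 and 14 shallower cells, the shares were 16.6% and 0.54%. Mast cell RNA outside mast cells was followed with Cpa3, which encodes a mast cell protease and stood at 8762 to 9985 CPM in mast cell-like and 29.0 to 60.7 CPM in ILC2-like cells. Mast cell-like cells held 47.9 to 58.7 Slc7a8 UMIs per 1000 Cpa3 UMIs and ILC2-like cells 952 to 4623. The part of mast cell RNA in the ILC2-like level was not tested. The ratio was 42.4 to 62.5 in mesenchymal-like, 31.3 to 46.2 in basophil-like, 43.1 to 80.6 in epithelial-like and 35.0 to 158 in endothelial-like cells. These ranges overlap with or lie near that of mast cell-like cells. The Slc7a8 level of mesenchymal-like cells stood highest in PBS-2, the litter with their highest Cpa3 level (3147 CPM, against 1244 to 1530 in the others). The part of mast cell RNA in the levels of these classes was not tested either.

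The partners of Slc7a8 followed the same order at the top. Slc3a2, the heavy chain gene, was at 819, 766, 716 and 761 CPM in mast cell-like cells. Those levels lay apart from mesenchymal-like (197 to 275 CPM) and ILC2-like cells (182, 204, 209 and 212 CPM), which overlapped each other. Endothelial-like (129 ± 32 CPM, mean and SD, n = 4 litters), epithelial-like (112 ± 15.2 CPM) and basophil-like cells (111 ± 14.2 CPM) came next without separation, above B cell-like cells (34.3 to 88.4 CPM). Slc7a5, the LAT1 light chain gene, was at 514, 490, 471 and 563 CPM in mast cell-like cells. ILC2-like cells had 63.0, 75.7, 78.7 and 77.4 CPM, overlapping with mesenchymal-like (56.7 to 179 CPM), basophil-like (27.4 to 67.6 CPM) and B cell-like cells (13.9 to 78.4 CPM). Per 1000 Cpa3 UMIs, Slc7a5 had 49.6 to 58.7 UMIs in mast cell-like, 45.6 to 91.4 in mesenchymal-like and 1248 to 2711 in ILC2-like cells. For Slc3a2 these were 75.4 to 93.5, 87.5 to 185 and 3357 to 7202. The part of mast cell RNA in these levels was not tested. Over litters the mean level in mast cell-like cells was 5.50 times that in ILC2-like cells for Slc7a8, 6.91 times for Slc7a5 and 3.80 times for Slc3a2, and higher in 4 of 4 litters each time.

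Slc7a6, the y+LAT2 light chain gene, ran the other way. It was at 36.8, 35.9, 41.8 and 33.1 CPM in ILC2-like cells and at 1.79, 6.35, 4.0 and 4.26 CPM in mast cell-like cells, a mean ratio of 0.111 over 66 UMIs in the latter. ILC2-like levels overlapped only with those of B cell-like cells (13.9 to 44.1 CPM) among the named classes, and basophil-like cells had 2.12 to 8.35 CPM.

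Among the Slc38 genes, Slc38a1 was highest in mast cell-like cells (287, 266, 252 and 237 CPM). ILC2-like cells followed at 183, 176, 155 and 157 CPM and lay above B cell-like cells (90.5 to 113 CPM) in every litter. By mean Slc38a1 was lowest in epithelial-like cells, at 21.6 to 35.8 CPM. Slc38a2, which in many cells answers amino acid shortage, varied little between classes. Its mean was highest in epithelial-like cells (127 to 172 CPM), and mast cell-like cells (123, 101, 122 and 87.2 CPM) lay above ILC2-like cells (79.6, 71.2, 73.4 and 73.6 CPM).

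Slc38a4 and Slc38a5 were found in few classes. Slc38a4 was at 71.3, 57.8, 67.5 and 64.5 CPM in ILC2-like cells, higher in every litter than in any other named class. Mesenchymal-like cells had 10.8 to 25.8 CPM and mast cell-like cells 0.857 to 1.53 CPM, from 18 UMIs over 2310 cells. A Slc38a4 UMI was seen in 28.0% of ILC2-like cells and 0.693% of mast cell-like cells (median depth 6284 UMIs), or 11% and 0.0482% after thinning. Slc38a5 was highest in mesenchymal-like cells (125, 124, 142 and 71.0 CPM). ILC2-like cells had 9.15, 14.5, 20.6 and 15 CPM, and mast cell-like cells 1 UMI per litter. In B cell-like cells 0 of 199 cells had a Slc38a5 UMI, which allows up to 1.51% of cells with a UMI at this depth (counting error only) and does not limit the share of cells that express the gene.

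Slc1a5, the ASCT2 gene, was highest in B cell-like cells, at 188, 172, 166 and 196 CPM. Epithelial-like cells came next (119 to 159 CPM), and ILC2-like cells (89.2, 96.5, 94 and 87.5 CPM) overlapped with mesenchymal-like cells (66.7 to 107 CPM). The ILC2-like level lay above that of mast cell-like cells (53.0, 59.4, 59.4 and 49.9 CPM) in 4 of 4 litters, with endothelial-like cells lowest (19.3 to 30.4 CPM).

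An unnamed cluster of 417 cells led by Gzmb and Scin carried Cpa3 at 5031 to 6252 CPM. Slc7a5 was at 265, 250, 266 and 242 CPM in it, between mast cell-like and ILC2-like cells. Slc7a8 was at 90.7, 154, 148 and 184 CPM, below mast cell-like cells and overlapping with ILC2-like cells (52.4 to 134 CPM). The deepest unnamed cluster, 332 cells with endothelial and epithelial markers and a median of 34270 UMIs, had Slc7a8 at 0 to 5.17 CPM.

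**Figure D1:**
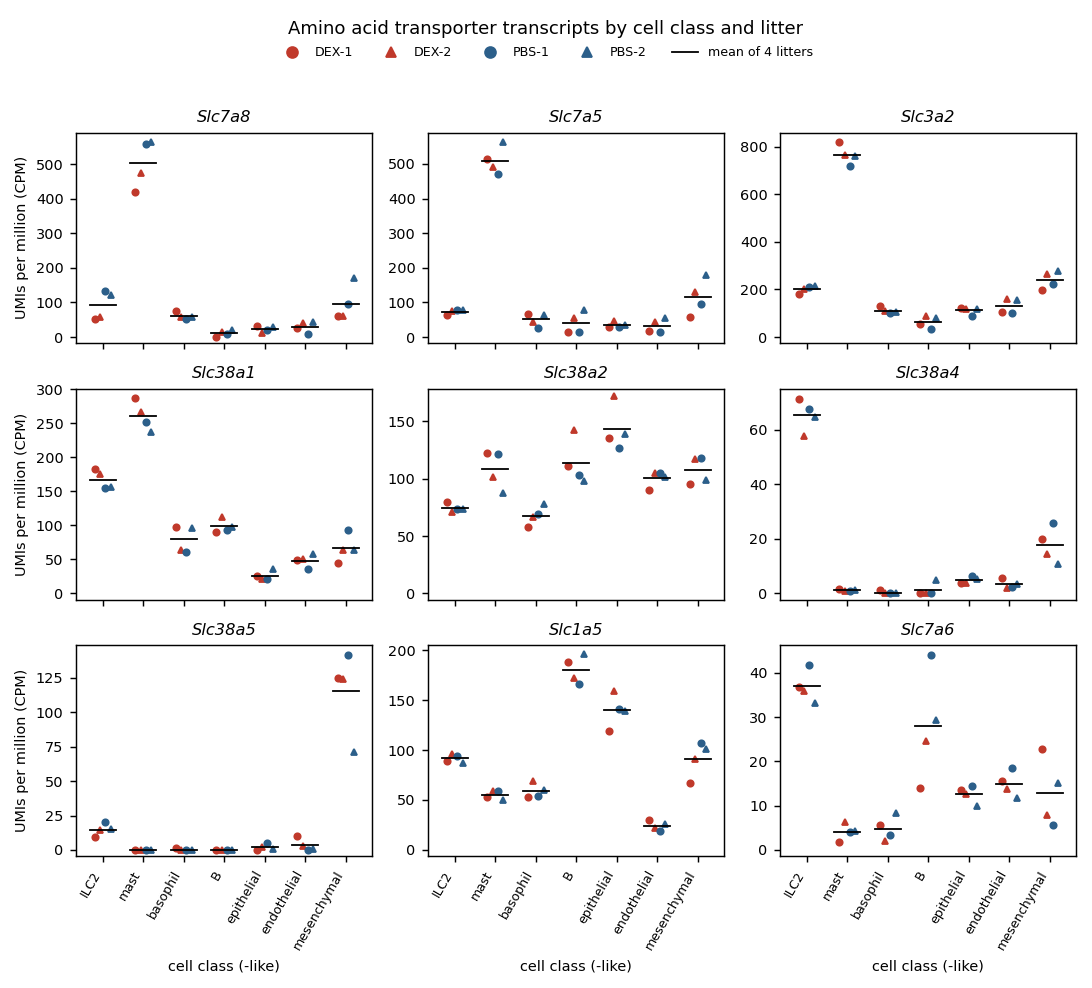
Level of each transporter transcript (CPM, linear axis from 0) in the 7 named cell classes, with 1 point per litter (red DEX, blue PBS; circles for litter 1, triangles for litter 2) and a line at the mean of 4 litters. Slc7a8, Slc7a5 and Slc3a2 stand highest in mast cell-like cells, Slc38a4 in ILC2-like cells, Slc38a5 in mesenchymal-like cells and Slc1a5 in B cell-like cells.

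ILC2-like cells were split further, again without the transporters, into 6 sub-clusters with at least 15 cells in every litter. A sub-cluster of 393 cells was mitotic, led by Ube2c and Cenpf, and another of 216 cells was led by S phase genes such as Ung and Mcm2. A sub-cluster of 705 cells was led by Ctla2a, Epcam, Calca and Enah, 1 of 351 cells by Cd7 and Ms4a4b, and 1 of 137 cells by Il5, Akap12 and Ramp3. The sixth, of 204 cells, was led by Atp4a and Pla2g7, with Slc38a5, Hdc, Gata1 and Cpa3 also among its leading genes. It had the highest level of Klrg1, an inhibitory receptor of mature lymphocytes (35.3, 59.2, 21.3 and 26.3 CPM, against at most 16.7 CPM in any litter of the other 5). These Klrg1 levels rested on 8 to 13 UMIs per litter, and Klrg1 in mast cell-like cells was at 0.765 to 2.00 CPM. Over Klrg1, Atp4a and Pla2g7 the mean share of cells with a UMI was 38.6% in this sub-cluster and at most 4.66% in other ILC2-like ones. In mast cell-like sub-clusters that share was 25.0 to 37.6%, so these genes together are not particular to the sub-cluster.

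The Atp4a Pla2g7 sub-cluster stood apart for 5 of the 9 transporters. How many of all genes stood apart in this sub-cluster was not counted, so nothing is read from the number. Slc7a8 was at 290, 251, 457 and 502 CPM there, above every litter of every other sub-cluster (at most 154 CPM). Slc3a2 reached 516, 401, 491 and 496 CPM, against at most 370 CPM elsewhere. Slc38a4 was at 283, 205, 199 and 236 CPM, where the other sub-clusters had 18.8 to 104 CPM. Slc7a6 was at 180, 155, 162 and 171 CPM, and no other sub-cluster exceeded 50.2 CPM. Slc38a5 was at 84.8, 237, 197 and 105 CPM, while the other 5 sub-clusters held 0 to 63.5 CPM. Means in this sub-cluster were 5.33 times those of all other ILC2-like cells for Slc7a8, 2.62 times for Slc3a2, 4.32 times for Slc38a4, 6.08 times for Slc7a6 and 37.7 times for Slc38a5. The Slc38a5 ratio was 24.6 without DEX-2, 72.8 without PBS-2 and 73.0 among cells without a Cpa3 UMI. Slc7a5 (60.0, 164, 141 and 108 CPM), Slc38a1 (171 to 212 CPM), Slc38a2 (77.7 to 105 CPM) and Slc1a5 (72.9 to 85.3 CPM) overlapped with other sub-clusters. Of its cells 77.5% had a Slc7a8 UMI, 56.9% a Slc38a4 UMI, 56.4% a Slc7a6 UMI and 26.0% a Slc38a5 UMI, at a median depth of 5400 UMIs.

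Some mast cell genes moved with this sub-cluster. The sum of the 12 mast cell markers was 1653, 3104, 932 and 1073 CPM in it, against 317 to 378 CPM in other ILC2-like cells. Hdc (368 to 858 CPM), Kit (199 to 487 CPM) and Cpa3 (79.7 to 665 CPM) were the most abundant in every litter but DEX-2. There Cma1 (561 CPM) and Tpsb2 (556 CPM) exceeded Kit (433 CPM), while both were at 18.6 to 42.4 CPM in the other litters. Kit overlapped with other ILC2-like cells (206 to 261 CPM). Of the 12 markers 5 had a UMI in every litter, and Mrgprb1, Mrgprb2 and Fcer1a were at 0. Its sum of the 8 ILC2 markers was 3772 to 4734 CPM, overlapping with other ILC2-like cells (3938 to 4314 CPM). Among the 137 of its cells without a Cpa3 UMI, Slc7a8 was at 279, 367, 454 and 545 CPM, Slc38a4 at 179 to 278 CPM and Slc7a6 at 170 to 189 CPM. In DEX-2, with 19 such cells, Slc7a8 and Slc38a4 were higher than among all of its cells (367 against 251 CPM and 278 against 205 CPM). Slc38a4, Slc38a5 and Slc7a6 were near 0 in mast cell-like cells, while Slc7a8 (mean 504 CPM) and Slc3a2 (mean 766 CPM) were highest in that class. The part of mast cell RNA in the levels of the sub-cluster was not tested. Slc38a5 was unevenly spread, since in DEX-2 it fell from 237 to 11.1 CPM once cells with a Cpa3 UMI were left out. When the Klrg1 state was instead defined by a Klrg1 UMI, which 44 thinned ILC2-like cells had, Slc7a8 was 1.91 times and Slc38a4 2.22 times the level of the cells without one, Slc7a6 was 0.934 times (3 UMIs) and Slc38a5 had 0 UMIs.

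As a share of UMIs, most transporters were lower in mitotic ILC2-like cells. Slc7a8 was at 35.3, 34.4, 79.8 and 82.2 CPM in them, a mean of 0.537 times that in the other ILC2-like cells and lower in 4 of 4 litters. Slc3a2 (133, 168, 161 and 167 CPM; 0.705 times), Slc38a1 (131 to 152 CPM; 0.776 times), Slc38a4 (38.5 to 57.7 CPM; 0.608 times), Slc7a6 (21.8 to 28.0 CPM; 0.587 times) and Slc1a5 (74.6 to 86.5 CPM; 0.852 times) were also lower in 4 of 4 litters. Slc38a2 (58.2 to 79.7 CPM; 0.831 times) and Slc38a5 (0 to 21.2 CPM; 0.302 times) were lower in 3 litters and Slc7a5 (60.1 to 80.0 CPM; 0.920 times) in 2. Of the 41 Slc38a5 UMIs 39 came from PBS-2, without which the ratio was 0.0256 (0.499 without PBS-1). The other ILC2-like cells include the Atp4a Pla2g7 sub-cluster. It held 198 of their 501 Slc7a6 UMIs, 272 of 885 Slc38a4 UMIs and 182 of 216 Slc38a5 UMIs. For these genes the mitotic levels overlapped with those of every remaining sub-cluster. Mitotic cells were the deepest sub-cluster, with a median of 14384 UMIs, and with every cell thinned to 2000 UMIs the Slc1a5 ratio turned to 1.09 while that of Slc7a8 was 0.395. Without thinning, a Slc3a2 UMI was seen in 80.7% of mitotic cells and 71.2% of all ILC2-like cells (median 7246 UMIs). The amount of transporter RNA per cell was not compared, so a lower share does not mean less RNA in a cell. The S phase sub-cluster had Slc7a8 at 37.4, 48.6, 78.9 and 87.2 CPM, overlapping with the mitotic one.

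The Cd7 sub-cluster was lowest for Slc7a8, at 15.2, 23.4, 29.7 and 12.5 CPM, below every litter of the others. It was also lowest for Slc3a2 (93.6 to 128 CPM). Its Slc1a5 level was the highest by mean (112, 143, 142 and 107 CPM) but overlapped with the S phase sub-cluster (78.2 to 143 CPM). The Il5 sub-cluster had the highest mean of Slc38a1 (299, 256, 251 and 219 CPM) and of Slc7a5 (89.7 to 154 CPM), both overlapping with the next.

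**Figure D2:**
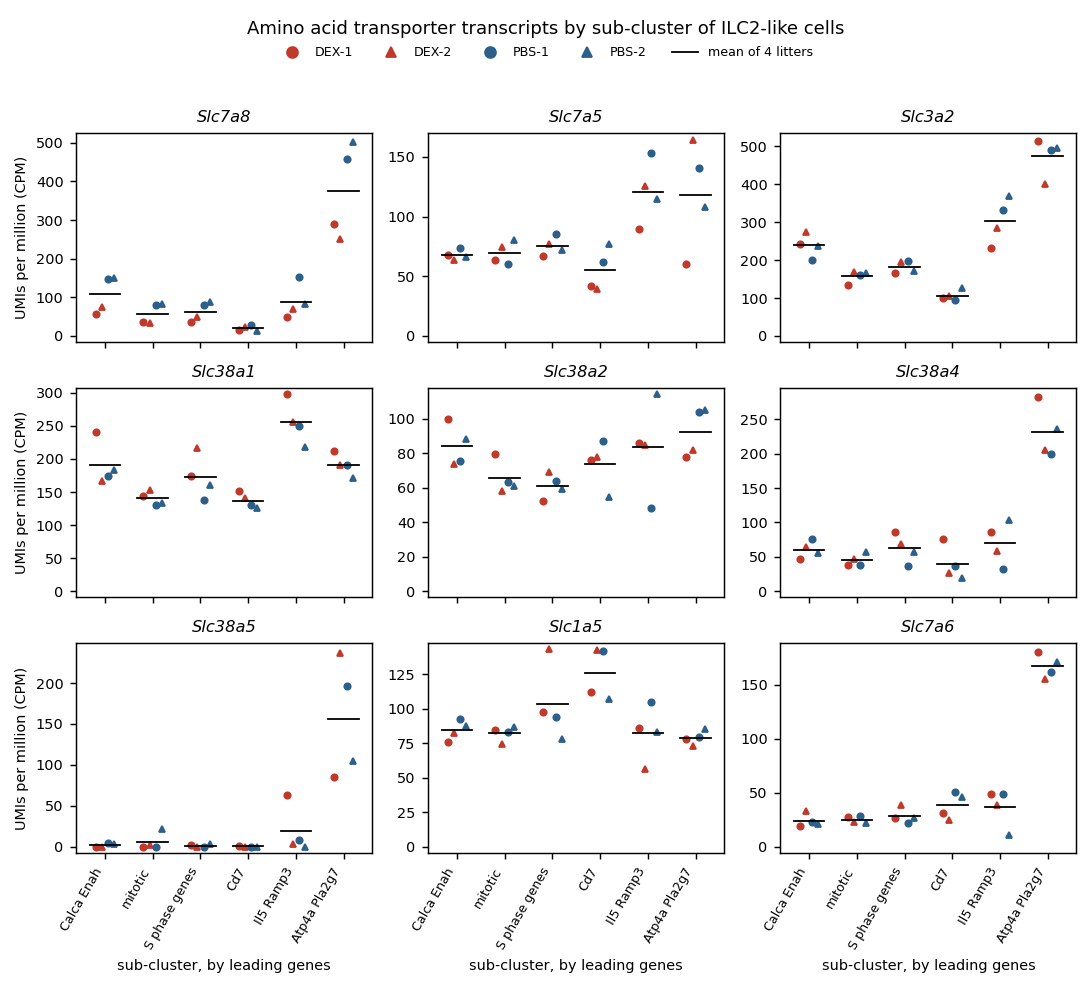
Level of each transporter transcript (CPM, linear axis from 0) in 6 sub-clusters of ILC2-like cells named by their leading genes, with 1 point per litter (red DEX, blue PBS) and a line at the mean of 4 litters. Slc7a8, Slc3a2, Slc38a4, Slc38a5 and Slc7a6 stand apart in the Atp4a Pla2g7 sub-cluster, and Slc7a8 is lowest in the Cd7 sub-cluster.

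Mast cell-like cells also differed among themselves. The Mrgprb1 sub-cluster (232 cells), led by a receptor of connective tissue mast cells, had the highest Slc7a5 (1114, 782, 744 and 871 CPM) and Slc3a2 (1321, 1164, 1124 and 1054 CPM). The Il1r2 Itgb3 sub-cluster (645 cells) had Slc7a5 at 287 to 391 CPM, below the Mrgprb1, Sucnr1 and Cma1 sub-clusters in every litter. Slc7a8 was at 530 to 770 CPM in the Mrgprb1 sub-cluster and at 275 to 419 CPM in the Cma1 Syngr1 sub-cluster (619 cells). A small sub-cluster of 40 cells led by heat shock genes such as Hspa1a had the lowest Slc7a8 by mean, at 138, 51.4, 249 and 106 CPM over 2 to 22 UMIs. Its Slc38a2 was at 380, 463 and 419 CPM in 3 litters and at 79.7 CPM in PBS-2, where it held 7 cells. Slc38a4, Slc38a5 and Slc7a6 were at 0 to 10.9 CPM in each of the 4 larger sub-clusters.

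**Figure D3:**
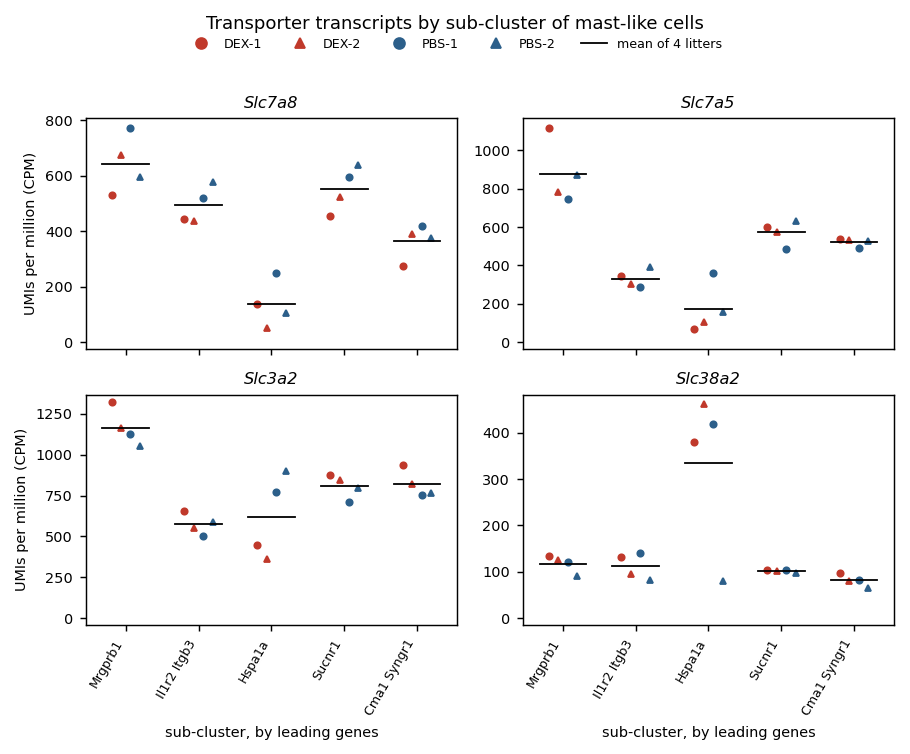
Level of Slc7a8, Slc7a5, Slc3a2 and Slc38a2 (CPM, linear axis from 0) in 5 sub-clusters of mast cell-like cells named by their leading genes, with 1 point per litter (red DEX, blue PBS) and a line at the mean of 4 litters. Among these 5, Slc7a5 and Slc3a2 are highest in the Mrgprb1 sub-cluster, and the Hspa1a sub-cluster rests on 7 to 13 cells per litter.

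The study asked how glucocorticoid exposure of the mother changes fetal lung ILC2s, and the transporters of its DEX and PBS litters are described here. UMIs of ILC2-like cells were summed per litter, 3792001 to 5190869 in all, and compared by edgeR (quasi-likelihood F-test). Of 10638 genes tested 245 (2.3%) were called at an adjusted p under 0.05, 116 higher (1.09%) and 129 lower (1.21%) in DEX, and all 9 transporters passed the filter on low counts. Slc7a8 was the 1 transporter of 9 called, and nothing is read from this, since the list was chosen with this contrast known. Its level was 52.4 and 57.8 CPM in the DEX litters and 134 and 122 CPM in the PBS litters, a log2 fold change of -1.21 ± 0.10 (SE). In thinned cells a Slc7a8 UMI was seen in 10.7 and 9.86% of ILC2-like cells of DEX litters and 23.8 and 21.5% of those of PBS litters. Lower numbers of cells with high Slc7a8 and less Slc7a8 RNA per cell cannot be told apart in these sums.

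The sub-clusters took different shares of each litter. The Calca Enah sub-cluster held 27.5 and 24.8% of ILC2-like cells in DEX litters and 43.8 and 40.5% in PBS litters, while the Cd7 sub-cluster, with the lowest Slc7a8, held 21.8 and 23.5% against 13.2 and 11.1%. With equal shares of the sub-clusters in each litter, the Slc7a8 levels were 66.4 and 72.8 CPM in DEX and 138 and 137 CPM in PBS litters, a log2 ratio of -0.98. Within the Calca Enah sub-cluster Slc7a8 was at 57.1 and 75.4 CPM in DEX and 148 and 149 CPM in PBS litters. DEX litters were also below PBS litters, without overlap, in the mitotic, S phase and Il5 sub-clusters and in the Atp4a Pla2g7 sub-cluster. In the Il5 sub-cluster this rested on 13 to 27 UMIs per litter, with 17 and 21 cells in the PBS litters. The treatments overlapped in the Cd7 sub-cluster (15.2 and 23.4 CPM against 29.7 and 12.5 CPM), where 6 to 18 UMIs were counted per litter. Cpa3 overlapped between the treatments (35.6 and 60.7 against 29.0 and 49.9 CPM).

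The other 8 transporters had log2 fold changes nearer to 0 in the fit of all ILC2-like cells. For the partner chains, the log2 fold change was -0.12 ± 0.08 for Slc3a2, -0.17 ± 0.11 for Slc7a5 and -0.02 ± 0.14 for Slc7a6. Both DEX litters lay below both PBS litters for Slc3a2 and Slc7a5, by little, and with equal sub-cluster shares the values were -0.005 and -0.20. Slc38a1 was higher in both DEX litters, with a log2 fold change of 0.21 ± 0.08 and 0.21 with equal shares. Slc38a5 had a log2 fold change of -0.59 ± 0.24 over 43 to 81 UMIs per litter. It ranged from -0.95 (without DEX-2) to -0.25 (without DEX-1) with 1 litter left out, and was -0.24 without mitotic cells, -0.02 with equal shares and -1.99 among cells without a Cpa3 UMI. Slc38a2 (0.05 ± 0.09), Slc38a4 (-0.01 ± 0.11) and Slc1a5 (0.04 ± 0.09) were within 1 SE of 0. The median log2 fold change was -0.02 over the 9 transporters and 0.00 over all genes tested.

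The same comparison was made in mast cell-like cells, whose earlier results were also known when the genes were listed. Of 10468 genes tested 1 (0.00955%) was called by edgeR, lower in DEX, 622 had an unadjusted p under 0.05, and DESeq2 called 11. The called gene was Hpgd, which encodes the enzyme that breaks down prostaglandins and is named after its values were seen (15.8, 12.5, 47.1 and 42.3 CPM; log2 fold change -1.65 ± 0.17, adjusted p = 0.0419). Without the mitotic mast cell-like cells its log2 fold change was -1.64 ± 0.17 and its adjusted p 0.0799, so the call was lost at a like fold. None of the 7 transporters that passed the filter was called, and Slc38a4 and Slc38a5 did not pass it.

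Slc7a8 was again lower in DEX litters, 420 and 475 CPM against 557 and 563 CPM. Its log2 fold change was -0.32 ± 0.11, with an unadjusted p of 0.0181 and an adjusted p of 0.712 by edgeR, so the difference did not pass the test. No other tested transporter had an unadjusted p under 0.05 in this comparison. Since the genes were listed with results of these cells known, the p-values of this paragraph are a description and nothing is read from them. Slc38a1 (0.19 ± 0.11, adjusted p = 0.931) and Slc3a2 (0.11 ± 0.11, adjusted p = 0.996) had slightly higher levels in both DEX litters. Slc7a5 (-0.04 ± 0.13, adjusted p = 0.997), Slc38a2 (0.11 ± 0.16), Slc1a5 (0.06 ± 0.14) and Slc7a6 (0.02 ± 0.52) overlapped between the treatments, and the last 4 turned sign with 1 litter or another left out. Whether the Slc7a8 difference in ILC2-like cells was larger than that in mast cell-like cells was not tested. In basophil-like cells Slc7a8 was at 76.5 and 56.6 CPM in DEX and 52.3 and 57.0 CPM in PBS litters, which overlapped.

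**Figure D4:**
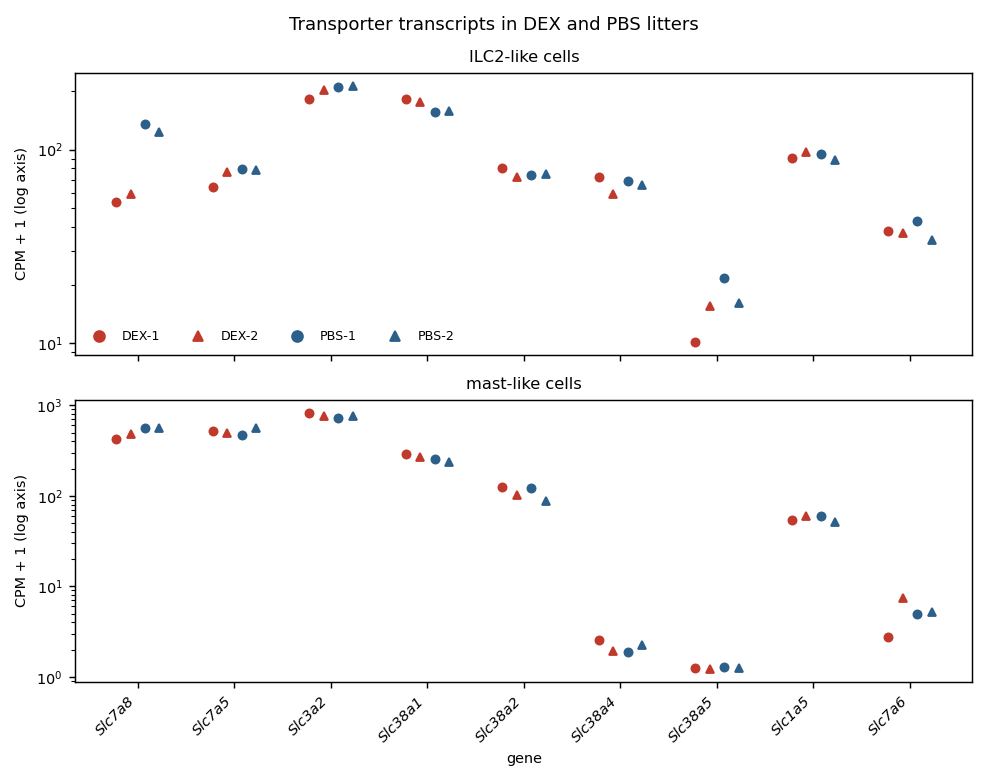
Level of the 9 transporter transcripts (CPM + 1, log axis) in ILC2-like cells (top) and mast cell-like cells (bottom), with 1 point per litter (red DEX, blue PBS; circles for litter 1, triangles for litter 2). Slc7a8 separates the treatments in ILC2-like cells (52.4 and 57.8 against 134 and 122 CPM), while most other transporters overlap or lie close.

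Genes around amino acid supply were taken from 4 further lists. Over all genes tested, 2.3% were called in ILC2-like and 0.00955% in mast cell-like cells. At these shares 1 or 0 calls in a list is no result about the list. Of 46 other amino acid transporters in the matrix, 14 could be tested in ILC2-like cells and 15 in mast cell-like cells. Slc6a13, which encodes a carrier of GABA and taurine, was lower in DEX among ILC2-like cells (28.1 and 18.2 against 54.5 and 35.3 CPM; log2 fold change -0.91 ± 0.21, adjusted p = 0.0414 by edgeR). The lists were chosen with earlier results of these data known, so this adjusted p and that of Lamtor4 below are a description. In mast cell-like cells 0 of the 15 other transporters were called. Of 32 tested genes of mTORC1 and amino acid sensing, Lamtor4, a subunit of the lysosomal Ragulator complex, was lower in ILC2-like cells (92.0 and 73.6 against 126 and 110 CPM; log2 fold change -0.49 ± 0.11, adjusted p = 0.0298 by edgeR). None of the 31 tested in mast cell-like cells was called. The call of Slc6a13 was lost in 5 of 13 alternatives and that of Lamtor4 in 6 of 13, among them DESeq2 (adjusted p = 0.0575 and 0.0877) and the fit without PBS-1 (0.173 and 0.119). Slc6a13 ranged over adjusted p from 5.15e-08 to 0.512 and over log2 fold change from -1.25 (without DEX-1) to -0.59 (without PBS-1), and adjusted p of Lamtor4 ranged from 7.02e-06 to 0.452.

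The amino acid response genes, which ATF4 drives when amino acids are short, gave 0 calls among 18 tested in ILC2-like cells and 0 among 19 in mast cell-like cells. Over all genes tested 2.3% and 0.00955% were called, so 0 calls in lists of this size, here and below, is no result about the lists. The median log2 fold change of the response genes was 0.13 and 0.09, against 0.00 over all genes in both. Of the 20 cytosolic aminoacyl-tRNA synthetases, which charge tRNAs with amino acids, 0 were called in either class, with medians of 0.00 and 0.07. The other transporters had medians of -0.03 and 0.01, and the mTORC1 genes 0.07 and -0.02.

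Over the 28 sums of 7 named classes and 4 litters, the genes most like each transporter were sought among 12891 genes by Pearson's r of log2(CPM + 1). These sums share libraries, depth and classes, so r is a description. For Slc7a8 the closest was Il1rl1, which encodes the ST2 receptor used for the sort (r = 0.967), followed by Esyt2 and Lcp2. Slc7a5 was closest to Slc3a2 (0.924), its partner, and Slc3a2 had Susd6 (0.940), Hpgds and Slc7a5 as its nearest. Slc38a4 was closest to Itgav (0.908) and Pparg (0.901), and Slc38a5 to Slc27a6 (0.909) and Adamts2 (0.904). Slc38a1 was closest to Il10ra (0.940), Slc7a6 to Ppdpf (0.888), Slc1a5 to Prps2 (0.874) and Slc38a2 to 2200002D01Rik (0.858).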

How the data were processed

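Fetal lung cells of 2 DEX and 2 PBS litters were measured in 1 gene expression library and 1 hashtag library. The authors counted UMIs with Cell Ranger 7.0.0 per the file headers, on mm10 per the submitters' processing notes, and the deposited values are raw counts per gene and barcode. Hashtag rows were matched to litters by the antibody number in the labels. The methods, labels and hashtags name 2 mothers per group, more than a legend does, and the hashtags were followed. The genes and lists were chosen with earlier results of these data known, and the text names the 9 genes, called list genes (at most 5 per list) and up to 3 most alike genes each, with at least 10 CPM in 1 sum.

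Barcodes with at least 200 genes and at most 5% mitochondrial UMIs (10409) were assigned with HTODemux (Seurat 5.3.0, quantile 0.99), which gave 7268 singlets, 736 hashtag doublets and 2405 barcodes without a hashtag. Doublets within a litter were not removed. Cells were clustered with scanpy 1.11.5 (2000 variable genes, 20 components, 15 neighbours, Leiden resolution 0.5) without the transporters and lists. The limits for naming clusters were set after the clusters were seen (3 markers in 25% of cells, a mean share of 30%, the next type at no more than 60% of it), so names are rebuilt. UMIs were summed per class and litter, giving 3502527 to 5190869 UMIs in the tested sums. DEX and PBS were compared with edgeR 4.0.16 (TMM, filterByExpr, quasi-likelihood F-test, two-sided, Benjamini-Hochberg). SE was obtained as log2 fold change over the root of F. CPM are scaled to total UMIs without TMM. Ratios between classes have no test. Alternatives were DESeq2 1.42.0, no filter, each litter left out, a replicate block, another hashtag rule, a mitochondrial limit of 10%, no mitotic cells, cells with a Gata3 UMI and cells thinned to 2000 UMIs. Equal sub-cluster shares and cells without a Cpa3 UMI were added after the data were seen. The fits were tested on simulated counts first.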

Additional observations from a re-analysis of the deposited data

Results flagged for a closer look

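Slc3a2 moved in opposite directions in the 2 classes. In ILC2-like cells both DEX litters were below both PBS litters (182 and 204 against 209 and 212 CPM), with a log2 fold change of -0.12. In mast cell-like cells both DEX litters were above both PBS litters (819 and 766 against 716 and 761 CPM), with a log2 fold change of 0.11. Neither change exceeded 1.5 times its SE, and the difference between the classes was not tested. With equal shares of the ILC2 sub-clusters the ILC2-like value was -0.005.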

How the results depend on the processing

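The count of genes called in ILC2-like cells (245) was 113 with DESeq2, 513 without the filter, 644 with a replicate block, 91 in thinned cells and 223 to 364 with each litter left out. That in mast cell-like cells (1) was 11, 172 and 251 under the first 3 of these, 0 without mitotic cells and 3 to 27 with each litter left out (3 without PBS-1, 27 without DEX-2). The litters share only a number: same-numbered litters deviated from their group means with r = 0.0747 in ILC2-like and 0.136 in mast cell-like cells, over genes. With the replicate block Slc7a8 in mast cell-like cells had an adjusted p of 0.0465 (0.0465 to 0.9999 over 10 alternatives) at -0.32, and Slc7a6 turned to -0.038. With each litter left out the mast cell-like log2 fold changes ranged from -0.046 to 0.17 for Slc1a5, -0.093 to 0.35 for Slc38a2, -0.17 to 0.12 for Slc7a5 and -1.18 to 0.62 for Slc7a6, and turned sign. In ILC2-like cells Slc7a8 ranged from -1.32 to -0.98 over 14 alternatives. For the Atp4a Pla2g7 sub-cluster, a Klrg1 UMI as the definition gave ratios of 1.06 for Slc1a5, 1.03 for Slc38a1, 2.22 for Slc38a4, 0 for Slc38a5, 1.14 for Slc3a2, 1.12 for Slc7a5, 0.934 for Slc7a6 and 1.91 for Slc7a8. Thinning gave 3.84 for Slc38a4 and 7.54 for Slc7a6, and leaving out cells with a Cpa3 UMI gave 1.06 for Slc38a1 and 73.0 for Slc38a5 (37.7 with all cells). Mast cell-like over ILC2-like ratios in thinned cells were 0.562 for Slc1a5, 1.49 for Slc38a1, 0.0037 for Slc38a4 and 0.0119 for Slc38a5, and 0.0356 for Slc38a5 with the other hashtag rule. Mitotic ratios in thinned cells were 1.09 for Slc1a5, 0.621 for Slc38a1, 0.469 for Slc7a6 and 0.395 for Slc7a8. The causes of these shifts were not tested. Low counts limit Slc38a5 in ILC2-like cells (43 to 81 UMIs per litter) and Slc7a6 in mast cell-like cells (66 UMIs in all), where Slc38a4 and Slc38a5 did not pass the filter.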
